A study of Homo sapiens with 27 samples.

Results

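FOXA1, HOXB13, GATA2, GRHL2 and SPDEF are transcription factors of luminal prostate epithelium. These 5 genes were taken by name out of the 20268 genes counted in at least 1 of 4 tables of mapped poly(A) ends, and all 5 were listed in each table. Poly(A) Click-seq (PAC-seq) gives reads that start in the transcript body and run into the poly(A) tail, so that the 3′-most base left after the tail is trimmed marks 1 polyadenylated 3′ end. Reads had been counted per gene in the annotated 3′ UTR with 300 bases added, in introns, in coding sequence (CDS), and in the 10 kb that follow the 3′ UTR. The libraries addressed how a lower level of CPSF1, which belongs to the CPSF complex that recognizes poly(A) signals, alters where transcripts of prostate cancer cells end.

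3 human prostate cancer lines were used, the hormone-sensitive LNCaP and the hormone-insensitive LNCaP95 and 22Rv1. Each line was transduced with lentivirus for the control hairpin (CTRL sh) or for 1 of 2 hairpins against CPSF1 (CPSF1 sh1 and CPSF1 sh2), and transduced cells were selected with puromycin, controls included. Cells were then seeded at 500000 per well and harvested 72 h later, in medium with 10% FBS that was free of phenol red for LNCaP95. There were 3 libraries per line and hairpin, 27 in all, each from stably transduced cells. The labels do not say whether replicate libraries came from separate transductions or cultures, so p-values measure the spread between these libraries, which may be partly technical. Since each library pools many cells, fewer transcripts per cell cannot be told apart from fewer cells that carry them.

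In luminal prostate cells these factors bind enhancers that keep the cells' identity. FOXA1 is a pioneer factor that opens chromatin for other factors, GATA2 is a zinc finger factor that acts with it, and HOXB13 is a posterior homeobox factor that binds many of the same enhancers. GRHL2, a grainyhead family factor, maintains epithelial junction genes, and SPDEF, an ETS family factor, drives secretory differentiation. A polyadenylated end normally forms a short way after an AAUAAA hexamer that CPSF recognizes, and a read in the 10 kb after the 3′ UTR marks an end formed further downstream.

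The canonical signal stood near the annotated end of all 5 genes. The sequences below give 30 bases of the transcript strand around it, read from GRCh37 and shown because it lies near the annotated 3′ UTR end. The counts take any end within the 3′ UTR region and do not show that this signal was used. Capitals mark the AATAAA hexamer (the DNA letters of AAUAAA).
FOXA1 (chr14:38059193-38059222, minus strand): ttaaggactttaAATAAAtcaaatgttaac
HOXB13 (chr17:46802129-46802158, minus strand): tttttcactcgcAATAAAttcagagcaaac
GATA2 (chr3:128198272-128198301, minus strand): actgttaagaatAATAAAatactttttgtg
SPDEF (chr6:34505583-34505612, minus strand): ccgggaatggatAATAAAgatactagagaa
The hexamer began 22 bases before the end in FOXA1, HOXB13 and SPDEF, 20 bases before it in GATA2 and 28 bases before it in GRHL2. Over 19534 gene ends, 57.7% had AATAAA on the transcript strand in the last 40 bases, 16.3% had ATTAAA and 71.0% had either. A newer annotation of the same build places the end of FOXA1 a further 432 bases on, which is 132 bases inside its counted 10 kb region, and neither hexamer lay in the last 40 bases of that end. Such an extension past the counted 3′ UTR was present for 2839 of 17591 genes, or 16.1%.

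The downstream regions of the 5 genes differ in what they hold. FOXA1 (14:38058757-38065264 in the newer annotation, minus strand) was counted downstream over 14:38048890-38058889, where the newer annotation also has a lncRNA on the same strand. HOXB13 (17:46802125-46806112, minus strand) was counted over 3 pieces of 9321 bases in all within 17:46791826-46801825, since exons of PRAC1 on the same strand had been removed, and MIR3185 also lies there. The 10 kb region of PRAC1 itself shares 6959 bases with that of HOXB13 (74.7% of the latter). It held 13 reads over the 27 libraries against 1766 for HOXB13, and how reads in shared bases were assigned was not tested. If such reads were handled alike for both genes, they counted for both or for neither. Most downstream reads of HOXB13 would then lie in the bases not shared with PRAC1. GATA2 was counted over 3:128187971-128197970, GRHL2 (8:102504667-102681954, plus strand) over 8:102682254-102692253, and SPDEF over 6:34495280-34505279. AATAAA occurred on the transcript strand 15 times in the downstream region of GRHL2, 10 times in that of FOXA1, 9 times in that of HOXB13, 5 times in that of GATA2 and 2 times in that of SPDEF. Per kb these are 1.5, 1.0, 0.966, 0.5 and 0.2, against a median of 0.8 over 20251 regions. A hexamer match describes the sequence and does not show that an end forms there.

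Libraries held 3452413 to 12425417 reads over the 4 tables, of which 1725670 to 6549383 lay in 3′ UTRs and 170330 to 728430 in 10 kb regions. CPSF1 itself fell in its 3′ UTR in each line (edgeR log2 change -1.19, adjusted p = 8.3e-05 in LNCaP; -1.05, adjusted p = 3.0e-04 in LNCaP95; -0.73, adjusted p = 0.0164 in 22Rv1), with no overlap between control and knockdown libraries. All 10 luminal markers (KRT8, KRT18, KRT19, CDH1, EPCAM, KLK2, KLK3, TMPRSS2, FOLH1 and STEAP2) averaged above 2 CPM (read counts scaled by the library's total in that table and a TMM factor) in the control 3′ UTRs of every line, whereas 1 or 2 of 6 basal, 1 to 3 of 6 neuroendocrine and 1 or 2 of 6 stromal markers did. The summed luminal marker level was 5104 to 5327 CPM in LNCaP controls and 3392 to 3662 CPM in LNCaP knockdown libraries, 7808 to 8418 and 3668 to 4898 CPM in LNCaP95, and 1835 to 2218 and 1638 to 1992 CPM in 22Rv1, and its part in the changes given next was not tested. Tested singly in 3′ UTRs by edgeR, 1 of the 10 luminal markers fell in LNCaP, 6 fell and 1 rose in LNCaP95, and 0 passed in 22Rv1. Of all tested genes 18.3%, 30.5% and 1.47% were called in either direction. The median log2 change of the luminal markers was -0.17, -0.45 and 0.05, so the summed level does not describe every marker. On average 6 knockdown libraries were nearer to the other hairpin's libraries than to their own group. The gap was widest for the first CPSF1 sh2 library of LNCaP (mean correlation 0.980 against 0.959) and the third CPSF1 sh1 library of LNCaP95 (0.975 against 0.966). It was 0.00116 to 0.00479 for the other 4, which are the third CPSF1 sh2 library of LNCaP, the other CPSF1 sh1 libraries of LNCaP95 and the second CPSF1 sh1 library of 22Rv1. The first control library of 22Rv1 was the shallowest. Each library was left out in turn for control differences, knockdown changes and read shares, and values without one are given where they change a call named here.

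All 5 factors were detected in the control 3′ UTRs of all 3 lines, and which line was highest differed from gene to gene. FOXA1 stood at 141, 139 and 133 CPM in the LNCaP control libraries, at 88.6, 107 and 78.4 CPM in LNCaP95, and at 113, 159 and 149 CPM in 22Rv1. LNCaP95 was thus lowest, with no overlap with either of the other lines, and the LNCaP libraries lay within the 22Rv1 range. FOXA1 was lower in LNCaP95 than in LNCaP (log2 difference -0.59 ± 0.17 SE, edgeR adjusted p = 0.00986, 3 against 3 libraries) and higher in 22Rv1 than in LNCaP95 (0.63, adjusted p = 0.00411), while 22Rv1 and LNCaP differed by 0.04 (adjusted p = 0.854). Without the third LNCaP95 control library the first of these differences was -0.49 (adjusted p = 0.0554).

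HOXB13 was at 339, 341 and 303 CPM in LNCaP controls, 236, 222 and 202 CPM in LNCaP95, and 157, 193 and 197 CPM in 22Rv1. LNCaP lay above the other lines in every library. HOXB13 was lower in LNCaP95 by 0.58 and in 22Rv1 by 0.83 on the log2 scale (log2 differences -0.58 and -0.83, edgeR adjusted p = 0.00403 and 1.5e-04), and LNCaP95 and 22Rv1 did not pass the test against each other (-0.25, adjusted p = 0.147). GATA2 had another order, with 197, 160.4 and 150.4 CPM in LNCaP95, 103, 108 and 90.4 CPM in LNCaP, and 88.0, 65.5 and 57.6 CPM in 22Rv1. No group overlapped another in GATA2, and all 3 differences passed the test: LNCaP95 exceeded LNCaP by 0.75 (adjusted p = 0.00282), 22Rv1 lay below LNCaP (-0.53, adjusted p = 0.0247) and below LNCaP95 (-1.28, adjusted p = 1.4e-05). The difference in GATA2 between 22Rv1 and LNCaP was lost when any 1 of 4 libraries was left out (LNCaP control 1 or 2, 22Rv1 control 2 or 3), where it lay between -0.51 and -0.40.

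GRHL2 was at 115, 172 and 139.7 CPM in LNCaP controls, at 124, 126 and 117 CPM in LNCaP95, and at 102, 90.5 and 75.5 CPM in 22Rv1. 22Rv1 was lowest in every library, and the LNCaP libraries spanned those of LNCaP95. GRHL2 was lower in 22Rv1 than in LNCaP (-0.68, edgeR adjusted p = 0.00405) and than in LNCaP95 (-0.46, adjusted p = 0.0342), the latter lost when any 1 of 6 libraries was left out, and LNCaP95 and LNCaP differed by -0.22 (adjusted p = 0.321). SPDEF was at 351, 296 and 341 CPM in LNCaP, 342, 245 and 292 CPM in 22Rv1, and 181, 151 and 197 CPM in LNCaP95, the last below both other lines in every library. SPDEF in LNCaP95 lay below LNCaP (-0.91, adjusted p = 2.5e-04) and 22Rv1 above LNCaP95 (0.74, adjusted p = 8.4e-04), while 22Rv1 and LNCaP did not pass the test (-0.17, adjusted p = 0.415). So 4 of 5 members differed between LNCaP95 and LNCaP, 3 of 5 between 22Rv1 and LNCaP and 4 of 5 between 22Rv1 and LNCaP95, where 39.3%, 47.2% and 54.6% of all tested genes did. How many of all genes have control groups without overlap was not counted, so the separations named above are a description only. Line, medium and the line's history of hormone response cannot be told apart in these differences.

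**Figure D1:**
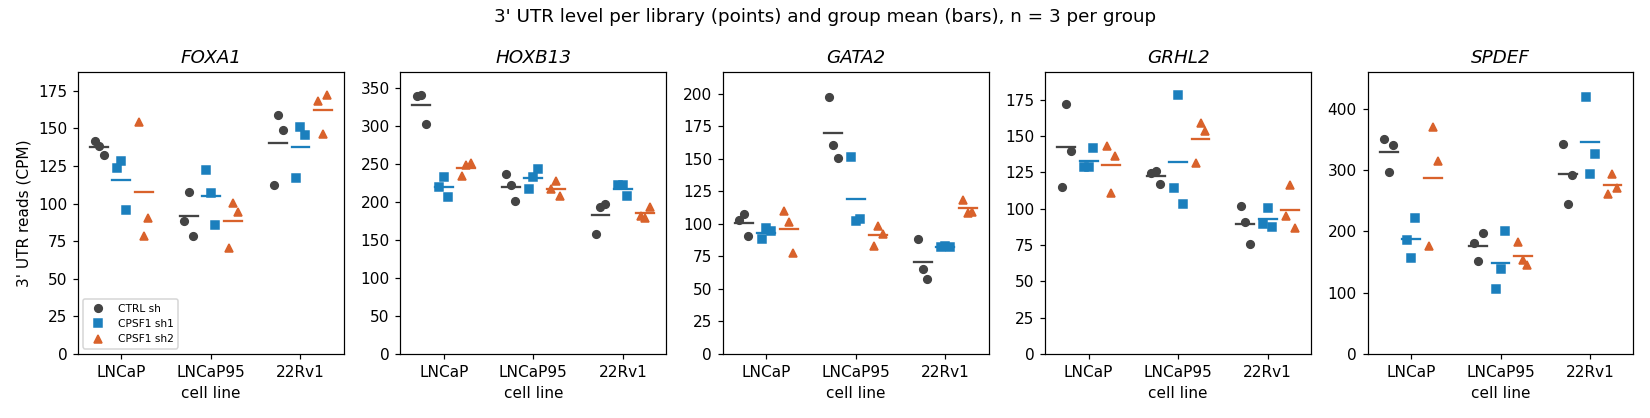
3′ UTR level in CPM (vertical axis, from 0, a separate scale per gene) of the 5 factors in each library, by line and hairpin, with horizontal bars at the group means of 3 libraries. HOXB13 in LNCaP (control 303 to 341 CPM, knockdown 206 to 251 CPM) and GATA2 in LNCaP95 (1 knockdown library, at 152 CPM, just above the lowest control at 150.4 CPM) are the members that passed the knockdown test.

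After CPSF1 knockdown most members kept a 3′ UTR level that could not be told from control. HOXB13 fell in LNCaP and GATA2 fell in LNCaP95, and none of the 5 passed the test in 22Rv1. The members called were 1 of 5 for LNCaP, 1 of 5 for LNCaP95 and 0 of 5 for 22Rv1, beside 18.3%, 30.5% and 1.47% of all tested genes called in either direction (10.1%, 15.2% and 0.791% lower). With 5 members these shares are a description only. The median log2 change of the 5 members was -0.28, 0.03 and 0.11, against 0.02, 0.01 and -0.01 over all tested genes. In 22Rv1 1 of the 5, GATA2, had an unadjusted edgeR p under 0.05, and DESeq2 also called 0.

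HOXB13 in LNCaP was at 339, 341 and 303 CPM in controls, at 219, 232 and 206 CPM with CPSF1 sh1 and at 235, 248 and 251 CPM with CPSF1 sh2. All 6 knockdown libraries lay below all 3 controls, a separation downward that 11.4% of tested genes showed. The fall was 0.48 on the log2 scale (-0.48 ± 0.11 SE, edgeR adjusted p = 0.00612, 6 against 3 libraries). It passed with CPSF1 sh1 alone (-0.56, adjusted p = 0.00215) and not with CPSF1 sh2 alone (-0.41, adjusted p = 0.0872), and it was -0.48 without the first CPSF1 sh2 library (adjusted p = 0.0117). In LNCaP95 HOXB13 ranged from 202 to 236 CPM in controls and from 208 to 243 CPM after knockdown (0.03, adjusted p = 0.865), and in 22Rv1 it was 0.13 (adjusted p = 0.714).

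GATA2 in LNCaP95 was at 197, 160.4 and 150.4 CPM in controls, at 152, 102 and 103 CPM with CPSF1 sh1 and at 83.2, 98.4 and 91.9 CPM with CPSF1 sh2. Only the first CPSF1 sh1 library reached the lowest control. The log2 change was -0.68 ± 0.16 (edgeR adjusted p = 0.00416), with -0.88 for CPSF1 sh2 alone (adjusted p = 1.6e-04) and -0.49 for CPSF1 sh1 alone (adjusted p = 0.0939). In 22Rv1 GATA2 was at 88.0, 65.5 and 57.6 CPM in controls, 82.1, 83.3 and 81.8 CPM with CPSF1 sh1 and 118, 108 and 109 CPM with CPSF1 sh2. The CPSF1 sh2 libraries stood above every control and the CPSF1 sh1 libraries below the highest, and the log2 change of 0.48 ± 0.17 did not pass (adjusted p = 0.194). Without the shallow first control library it was 0.66 and passed (adjusted p = 0.0358). In LNCaP the change in GATA2 was -0.07 (adjusted p = 0.756).

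SPDEF in LNCaP was split between hairpins and within one of them. Its 3′ UTR stood at 351, 296 and 341 CPM in controls, at 185, 156 and 222 CPM with CPSF1 sh1 and at 175, 370.3 and 315 CPM with CPSF1 sh2. The CPSF1 sh1 libraries lay below every control, the first CPSF1 sh2 library lay with them, and the other CPSF1 sh2 libraries lay with the controls. Over both hairpins the log2 change was -0.46 ± 0.21 (edgeR adjusted p = 0.136), and with CPSF1 sh1 alone it was -0.78 (adjusted p = 3.1e-04). Leaving out the second CPSF1 sh2 library brought the joint change to -0.63 (adjusted p = 0.0116). The hairpins differed by 0.59 ± 0.21 with all libraries (CPSF1 sh2 minus CPSF1 sh1, adjusted p = 0.472) and by 0.86 ± 0.15 without the first CPSF1 sh2 library (adjusted p = 0.00918), a setting under which 210 of 11007 genes differed between hairpins. With all libraries no member passed the test between hairpins in 3′ UTRs (0.0363%, 0% and 0.0522% of tested genes called in LNCaP, LNCaP95 and 22Rv1), introns (0.118%, 0% and 0.154%) or 10 kb regions (0.119%, 0.00676% and 0.174%). At an unadjusted edgeR p under 0.05 the members were 1, 1 and 1, then 0, 1 and 1, then 0, 0 and 3, the last being FOXA1, GRHL2 and SPDEF in 22Rv1. SPDEF changed by -0.19 in LNCaP95 (adjusted p = 0.415) and 0.08 in 22Rv1 (adjusted p = 0.877).

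FOXA1 and GRHL2 did not pass the 3′ UTR test in any line. FOXA1 gave log2 changes of -0.28 (edgeR adjusted p = 0.286) in LNCaP, 0.09 (adjusted p = 0.712) in LNCaP95 and 0.08 (adjusted p = 0.860) in 22Rv1. Its LNCaP knockdown libraries spread from 78.5 to 154 CPM around controls of 133 to 141 CPM. GRHL2 gave -0.10, 0.20 and 0.11 (adjusted p = 0.679, 0.374 and 0.797), with knockdown libraries of 103 to 178 CPM around controls of 117 to 126 CPM in LNCaP95. When each library was scaled by its total over all 4 tables, the genes called higher and lower in 3′ UTRs were 1247 and 2128 in LNCaP95 in place of 1719 and 1715, and 63 and 231 in 22Rv1 in place of 78 and 91, and the small positive changes of FOXA1 and HOXB13 in LNCaP95 and of FOXA1 and SPDEF in 22Rv1 then turned negative without passing the test.

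Downstream, GRHL2 rose in all 3 lines, FOXA1, HOXB13 and GATA2 rose in LNCaP95, and SPDEF rose in 22Rv1. The test called 1 of 5 members higher in LNCaP, 4 of 5 in LNCaP95 and, of the 4 tested, 2 in 22Rv1, and none lower. The LNCaP95 number and median take in GATA2, which entered that test only through its knockdown libraries. Of all tested genes 9.52%, 17.6% and 7.26% were called higher, and 699 of 13441, 1499 of 14789 and 393 of 14372 were called lower. The median log2 change was 0.16, 1.45 and 0.75 over the members against 0.13, 0.22 and 0.19 over all tested genes. The 10 kb table took 4.80% to 4.98% of all reads in LNCaP controls and 5.44% to 7.40% after knockdown, 3.48% to 3.75% and 5.10% to 7.10% in LNCaP95, and 4.46% to 4.93% and 5.51% to 6.30% in 22Rv1. CPM within this table are relative to that growing total.

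GRHL2 in LNCaP95 stood at 135, 120.2 and 117 CPM of downstream reads in controls, at 599.9, 2625 and 693 CPM with CPSF1 sh1 and at 1815, 1363 and 1446 CPM with CPSF1 sh2. These are 44, 32 and 38 reads in controls and 292 to 1361 reads after knockdown, and every knockdown library lay several-fold above every control. The second CPSF1 sh1 library was the highest. The log2 change was 3.44 ± 0.32 (edgeR adjusted p = 1.0e-15, 6 against 3 libraries). Each hairpin alone gave a like value, 3.31 for CPSF1 sh1 and 3.59 for CPSF1 sh2.

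In LNCaP the downstream level of GRHL2 was 138, 173 and 164 CPM in controls, 475, 354 and 423 CPM with CPSF1 sh1 and 653, 446 and 589 CPM with CPSF1 sh2. The groups did not overlap, and the log2 change was 1.61 ± 0.23 (edgeR adjusted p = 4.9e-09). It was 1.52 without the first CPSF1 sh2 library (adjusted p = 2.1e-08). In 22Rv1 GRHL2 was at 109.7, 118 and 63.2 CPM in controls, 123, 179 and 138 CPM with CPSF1 sh1 and 205, 232 and 253 CPM with CPSF1 sh2. Here too every knockdown library lay above every control, the CPSF1 sh1 libraries only a little. The log2 change of 0.93 ± 0.26 passed (adjusted p = 0.00878), as did CPSF1 sh2 alone (1.30, adjusted p = 9.8e-05), whereas CPSF1 sh1 alone gave 0.63 (adjusted p = 0.283) and leaving out the third control library gave 0.65 (adjusted p = 0.215). Separation upward in 10 kb regions was shown by 10.1%, 18.3% and 11.9% of tested genes in LNCaP, LNCaP95 and 22Rv1.

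**Figure D2:**
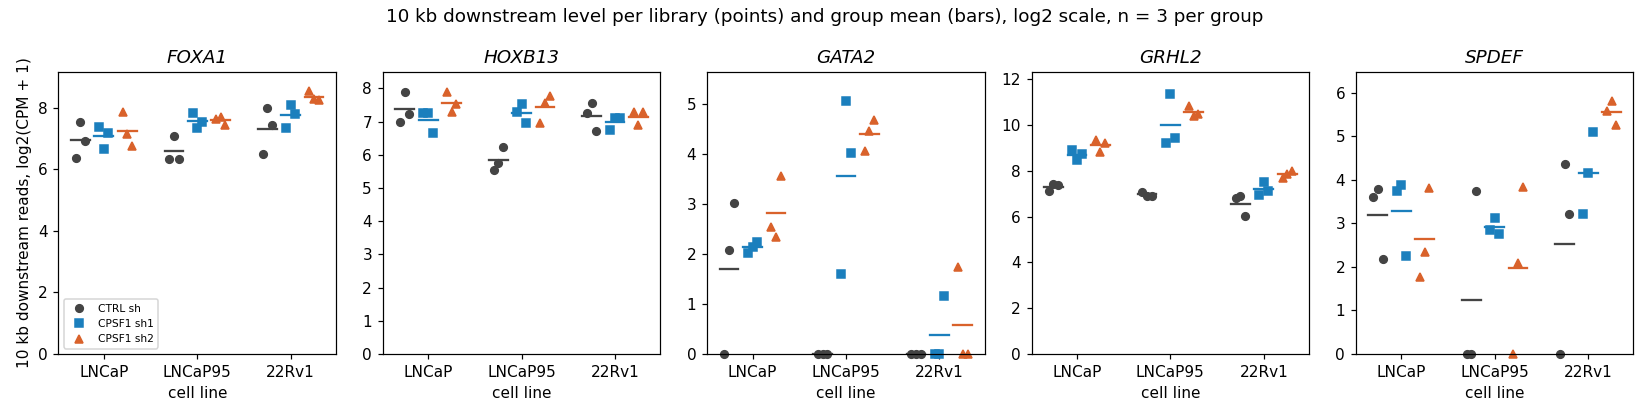
Reads in the 10 kb downstream region as log2(CPM + 1) (vertical axis, from 0, a separate scale per gene) in each library, by line and hairpin, with bars at the mean of 3 log values. GRHL2 is higher in all 6 knockdown libraries than in all 3 controls of each line, and GATA2 is at 0 in the controls of LNCaP95 and 22Rv1.

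FOXA1 in LNCaP95 stood downstream at 79.7, 135 and 80.3 CPM in controls, 226, 160.1 and 185 CPM with CPSF1 sh1 and 198, 205 and 173 CPM with CPSF1 sh2. The groups did not overlap and the log2 change was 0.91 ± 0.29 (edgeR adjusted p = 0.012), but it was 0.80 when either the first (adjusted p = 0.0708) or the third control library (adjusted p = 0.0703) was left out, and with CPSF1 sh1 alone it was 0.92 (adjusted p = 0.0644). In 22Rv1 FOXA1 was at 88.8, 252 and 173 CPM in controls, 163, 272 and 221 CPM with CPSF1 sh1 and 370.2, 308 and 301 CPM with CPSF1 sh2. Only the CPSF1 sh2 libraries cleared the controls, which spread widely. The joint change of 0.58 did not pass (adjusted p = 0.0975), CPSF1 sh2 alone did (0.91, adjusted p = 0.00309), and so did the joint change without the second control library (0.93, adjusted p = 0.0248) or the first CPSF1 sh1 library (0.68, adjusted p = 0.0286). In LNCaP it was 0.16 (adjusted p = 0.760). Because the newer annotation ends FOXA1 inside its counted 10 kb region, part of these reads may belong to that annotated end, which was not tested.

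HOXB13 rose downstream in LNCaP95, where controls held 46.0, 52.6 and 74.1 CPM, CPSF1 sh1 libraries 156, 185 and 124 CPM and CPSF1 sh2 libraries 123, 189 and 216 CPM. No control reached a knockdown library. The log2 change was 1.45 ± 0.32 (edgeR adjusted p = 2.2e-04). In LNCaP and 22Rv1 the groups overlapped, at 127 to 234 CPM in controls and 99.7 to 238 CPM after knockdown in LNCaP, and at 104 to 189 and 105 to 154 CPM in 22Rv1, with changes of -0.09 (adjusted p = 0.869) and -0.18 (adjusted p = 0.721). The LNCaP95 controls of HOXB13 also lay below those of LNCaP (-1.58, adjusted p = 0.00105) and 22Rv1 lay above LNCaP95 (1.47, adjusted p = 0.0016), comparisons in which 5.77% and 15.3% of tested genes were called. The first of these was -1.27 without the second LNCaP control library (adjusted p = 0.0763). Most of the counted region is shared with that of PRAC1, as given above, so the HOXB13 reads may come from only the rest of it.

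GATA2 and SPDEF had few downstream reads. GATA2 had 0, 0 and 0 reads in LNCaP95 controls, 1, 17 and 8 with CPSF1 sh1 and 8, 13 and 13 with CPSF1 sh2. Every knockdown library thus held reads where no control did, and against a floor of 3 reads over the control group the knockdown level was at least 5.76-fold higher (edgeR adjusted p = 7.0e-04). GATA2 came above the filter of 2 CPM in LNCaP95 only through its knockdown libraries, so this call is a description only. In LNCaP GATA2 had 3 reads over 3 controls and 12 over 6 knockdown libraries (adjusted p = 0.841), and in 22Rv1 0 and 3, too few to test. SPDEF in 22Rv1 had 0, 5 and 3 reads in controls, 5, 7 and 27 with CPSF1 sh1 and 40, 36 and 27 with CPSF1 sh2. The CPSF1 sh2 libraries were above all controls and the CPSF1 sh1 libraries overlapped them. Its log2 change of 1.69 ± 0.59 just passed (adjusted p = 0.0476), was lost when any 1 of 6 libraries was left out (1.26 without the shallow first control, adjusted p = 0.196), and was 1.02 for CPSF1 sh1 alone (adjusted p = 0.559) and 2.22 for CPSF1 sh2 alone (adjusted p = 0.00339). SPDEF had 1 to 6 reads in LNCaP libraries and 0 to 7 in LNCaP95, and did not pass there (-0.20 and 0.40, adjusted p = 0.919 and 0.817). Floors and intervals of this kind cover counting error only, since the reads carry no stated molecular identifiers in the tables.

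How the 10 kb reads are scaled sets the size of these changes. When each library was scaled by its total over all 4 tables together with its 3′ UTR factor, the median log2 change over all tested 10 kb regions moved to 0.62, 1.11 and 0.73, and the genes called higher and lower were 2325 and 141 (LNCaP), 5264 and 240 (LNCaP95) and 2701 and 57 (22Rv1), in place of 1280 and 699, 2600 and 1499, and 1043 and 393. GRHL2 lay above those medians in each line, at 2.14, 4.43 and 1.47. FOXA1 then gave 0.68 (edgeR adjusted p = 0.0869), 1.84 and 1.16 (adjusted p = 1.8e-04), and HOXB13 gave 0.44, 2.37 and 0.35, near or below the median in LNCaP and 22Rv1.

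**Figure D3:**
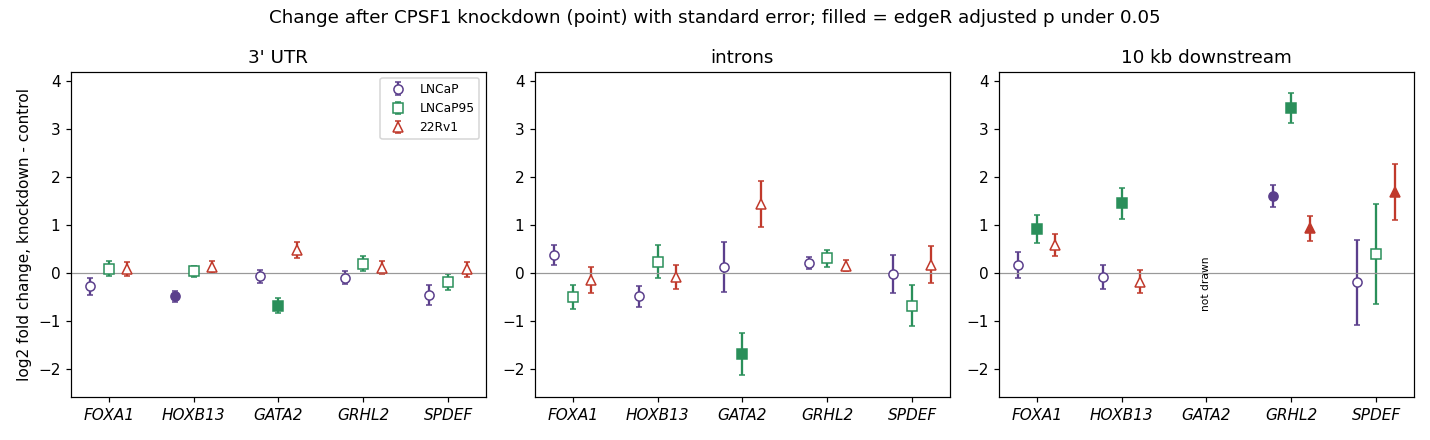
Log2 fold change after CPSF1 knockdown (vertical axis, 6 knockdown minus 3 control libraries) with the standard error derived from the edgeR F-test for each factor and line, in 3′ UTRs, introns and 10 kb regions. Filled symbols passed an adjusted p under 0.05, and GATA2 is not drawn downstream because its controls hold almost no reads. GRHL2 lies near 0 in 3′ UTRs and at 1.61, 3.44 and 0.93 downstream.

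Intronic ends of GATA2 fell in LNCaP95, as its 3′ UTR did. In LNCaP95 GATA2 had 11.2, 8.58 and 15.9 CPM of intron reads in controls, 5.03, 5.71 and 3.31 CPM with CPSF1 sh1 and 1.10, 5.25 and 1.17 CPM with CPSF1 sh2. All knockdown libraries lay below all controls, as for 11.2% of tested genes, on 2 to 35 reads per library, and the log2 change was -1.69 ± 0.44 (edgeR adjusted p = 0.00536), or -1.42 without the third control library (adjusted p = 0.0555). In 22Rv1 GATA2 introns were at 0, 4.99 and 3.10 CPM in controls and 6.57 to 8.70 CPM after knockdown, all above (5.71% of tested genes), yet 1.44 ± 0.48 did not pass (adjusted p = 0.0988), and in LNCaP the change was 0.13 (adjusted p = 0.909). No other member was called in introns. That makes 0, 1 and 0 of 5 members for LNCaP, LNCaP95 and 22Rv1, beside 14.3%, 23.8% and 4.37% of all tested genes. DESeq2 called the same numbers, and at an unadjusted edgeR p under 0.05 there was 1 member in each line (HOXB13, GATA2 and GATA2). With summed library sizes the intron calls higher and lower over all genes were 537 and 1852 in place of 1033 and 668 in LNCaP and 421 and 20 in place of 323 and 215 in 22Rv1, and GATA2 in 22Rv1 then passed (1.70, adjusted p = 0.0412).

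The counted intron region, which is the gene without CDS and 3′ UTR and so takes in 5′ UTRs, held 172430 bases in GRHL2 against 6871 in FOXA1, 1542 in HOXB13, 10738 in GATA2 and 17066 in SPDEF, and GRHL2 is also the member with the largest share of its reads there. Its intron level was 379, 458 and 475 CPM in LNCaP controls and 446 to 547 CPM after knockdown, 549, 606 and 531 CPM and 552 to 942 CPM in LNCaP95, and 194, 251 and 259.7 CPM and 227 to 295 CPM in 22Rv1. These ranges overlapped in each line, and the log2 changes of 0.21, 0.31 and 0.15 did not pass (edgeR adjusted p = 0.271, 0.219 and 0.569). At baseline GRHL2 introns were lower in 22Rv1 than in LNCaP (-0.88, adjusted p = 8.1e-05) and LNCaP95 (-1.23, adjusted p = 2.4e-07), and GATA2 introns were lower in 22Rv1 than in LNCaP95 (-2.04, adjusted p = 0.00723), where 31.0% and 38.3% of tested genes differed. In CDS only GRHL2 had enough reads to test, and its changes of -0.01, 0.69 and 0.03 did not pass (adjusted p of 0.0728 in LNCaP95). 7.10%, 12.5% and 1.01% of tested genes were called there. The counted intron region of FOXA1 exceeds the 6508 bases of its gene in the newer annotation, so its counts rest on another gene model.

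Summed over the 4 regions, HOXB13 fell in LNCaP (-0.38, edgeR adjusted p = 0.00833), GATA2 fell in LNCaP95 (-0.77, adjusted p = 0.00208) and GRHL2 rose in LNCaP95 (0.64, adjusted p = 0.0186). FOXA1 and SPDEF passed in no line. These are 1, 2 and 0 of 5 members (2 each at an unadjusted p under 0.05), beside 27.5%, 34.3% and 7.57% of tested genes. No library was left out in turn for these sums, so how far the calls rest on 1 library is not known.

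The change after knockdown was also tested for a difference between lines, by edgeR over all 27 libraries. In 3′ UTRs HOXB13 differed between LNCaP and each other line and GATA2 between LNCaP95 and 22Rv1, which is 1 of 5 members in each of the 3 pairs, beside 9.58% of tested genes for LNCaP95 against LNCaP, 5.11% for 22Rv1 against LNCaP and 10.7% for 22Rv1 against LNCaP95. Both HOXB13 differences lost the call when libraries were scaled by their totals over all 4 tables (0.39, adjusted p = 0.146, for LNCaP95 minus LNCaP and 0.50, adjusted p = 0.0847, for 22Rv1 minus LNCaP). In introns 0, 0 and 1 members differed (8.10%, 3.77% and 9.10% of tested genes), the 1 being GATA2, with 2, 0 and 1 at an unadjusted p under 0.05. Downstream 2, 0 and 2 differed (2.48%, 1.00% and 4.15%), HOXB13 and GRHL2 in both pairs with LNCaP95, with 4, 0 and 2 at an unadjusted p under 0.05.

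The share of a gene's own reads that lay downstream does not depend on the gene's total level. It describes the polyadenylated transcripts present, and where ends form and how long each transcript lasts cannot be told apart in it. Shares were tested for the members only, so how many of all genes would pass or separate is not known. Downstream reads also took a larger part of all reads after knockdown in each line. GRHL2 had 3.30%, 2.90% and 2.96% of its reads downstream in LNCaP controls, 11.6%, 9.47% and 9.64% with CPSF1 sh1 and 15.9%, 14.7% and 14.1% with CPSF1 sh2. In LNCaP95 the share of GRHL2 was 2.21%, 1.79% and 2.07% in controls, 14.2%, 35.4% and 16.9% with CPSF1 sh1 and 32.6%, 26.6% and 29.4% with CPSF1 sh2. In 22Rv1 it was 5.26%, 4.56% and 2.50% in controls, 6.63%, 7.99% and 6.74% with CPSF1 sh1 and 9.63%, 9.93% and 12.2% with CPSF1 sh2. Knockdown libraries lay above controls throughout, with control and knockdown means of 3.06% ± 0.22 and 12.6% ± 2.73 for LNCaP (SD, n = 3 and 6), 2.02% ± 0.22 and 25.9% ± 8.55 for LNCaP95, and 4.11% ± 1.44 and 8.86% ± 2.16 for 22Rv1. An exact two-sided permutation test over the 84 splits gave p = 0.0119 in LNCaP and LNCaP95, the smallest it can give, and p = 0.0238 in 22Rv1 (unadjusted, 15 comparisons of downstream shares), where leaving out the third control library gave p = 0.107. The intron share of GRHL2 was 62.9% in LNCaP95 controls and 48.3% after knockdown (exact permutation p = 0.0238), and did not pass in LNCaP (56.1% and 50.4%, p = 0.119) or 22Rv1 (50.6% and 53.5%, p = 0.25).

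The downstream share of FOXA1 was higher after knockdown in LNCaP95 and 22Rv1. In LNCaP95 its downstream share was 4.46%, 6.13% and 5.56% in controls, 14.0%, 14.1% and 16.6% with CPSF1 sh1 and 30.3%, 18.6% and 16.5% with CPSF1 sh2. In 22Rv1 the share of FOXA1 was 7.98%, 10.4% and 7.97% in controls, 15.6%, 17.2% and 15.8% with CPSF1 sh1 and 20.9%, 21.2% and 18.2% with CPSF1 sh2. Neither line had an overlap (exact permutation p = 0.0119 in each). Its intron share in LNCaP95 was 10.5% in controls and 6.32% after knockdown (exact permutation p = 0.0357). The second control library, at 6.64%, lay within the knockdown range of 4.53% to 9.42%. Values without 1 library are not given for this intron share, so its stability is not known. In LNCaP the means of the downstream share of FOXA1 were 5.79% ± 1.78 and 10.7% ± 3.33, with p = 0.0833 by the exact permutation test, and p = 0.0179 without the second CPSF1 sh1 library. HOXB13 went from 1.55% to 7.75% in LNCaP95 (exact permutation p = 0.0119) and from 3.42% to 6.30% in LNCaP (p = 0.0357, not under 0.05 when any 1 of 7 libraries was left out), and had 6.71% and 7.67% in 22Rv1 (p = 0.5).

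The downstream shares of GATA2 and SPDEF stayed small. GATA2 had none of its reads downstream in LNCaP95 controls and 2.29% ± 1.28 after knockdown (exact permutation p = 0.0238, and 0.0536 without the second CPSF1 sh1, the first CPSF1 sh2 or the third CPSF1 sh2 library), 0.249% and 0.566% in LNCaP (p = 0.417), and 0% and 0.0707% in 22Rv1 (p = 0.5). SPDEF had 0.273% and 1.43% in 22Rv1 (exact permutation p = 0.0595, and 0.0357 without the first CPSF1 sh1 library), and 0.206% and 0.366% in LNCaP and 0.137% and 0.457% in LNCaP95, neither of which passed (p = 0.381 and 0.214). The intron share of GATA2 was 2.97% in LNCaP95 controls and 1.32% after knockdown and 1.61% and 4.51% in 22Rv1, opposite in direction (p = 0.0238 in each by the exact permutation test). The first of these was 0.0595 on the log odds scale and 0.0536 to 0.179 when any 1 of 6 libraries was left out, and the second was 0.107 without the first control library. In an edgeR model of downstream against 3′ UTR reads, the ratio of GRHL2 rose by 1.68 in LNCaP (adjusted p = 2.3e-04) and 3.11 in LNCaP95 (adjusted p = 3.6e-08) on the log2 scale, and was 0.81 in 22Rv1 (adjusted p = 0.114). The ratio of FOXA1 in 22Rv1 was 0.53 (adjusted p = 0.269), unlike its share, which passed the permutation test. In LNCaP95 the ratio of HOXB13 rose by 1.41 (adjusted p = 0.00325), and that of FOXA1 was 0.85 (adjusted p = 0.0538). The ratio of GATA2, which entered this test only through its knockdown libraries, passed there with all controls at 0 (adjusted p = 3.6e-04). These are 1, 3 and 0 members called higher (1, 4 and 2 at an unadjusted p under 0.05), beside 8.39%, 21.2% and 6.65% of tested genes. These ratios are scaled by TMM within each table, which takes out the general rise of downstream reads. Scaled by summed library sizes without TMM, the ratio of FOXA1 was 1.87 in LNCaP95 (edgeR adjusted p = 7.3e-04), and in 22Rv1 FOXA1 gave 1.19 (adjusted p = 0.00608), GRHL2 1.42 (adjusted p = 0.00413) and SPDEF 2.23 (adjusted p = 0.0219), all of which then passed. The median log2 ratio over all tested genes was then 0.75, 1.51 and 0.97 in LNCaP, LNCaP95 and 22Rv1, with 1446 of 9375, 4728 of 10110 and 2549 of 10088 genes called higher.

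**Figure D4:**
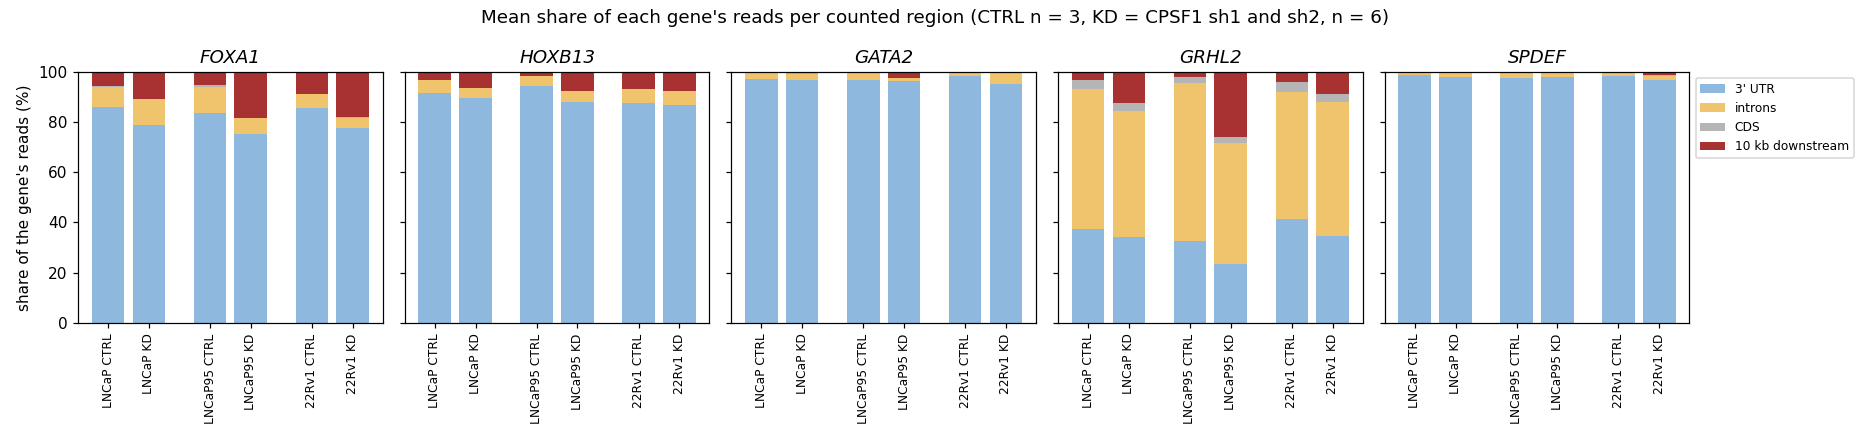
Mean share of each factor's reads (vertical axis, %) in 3′ UTR, introns, CDS and 10 kb downstream, in control (CTRL, n = 3) and knockdown (KD, both CPSF1 hairpins, n = 6) libraries of each line. GRHL2 has about as many or more reads in introns as in its 3′ UTR, and its downstream share is 2.02% in LNCaP95 controls and 25.9% after knockdown.

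Other factors of the same lineage were read for comparison from a list of 38, among them EHF, SOX4 and ONECUT2. In 3′ UTRs, 24, 25 and 29 of them were tested in LNCaP, LNCaP95 and 22Rv1, of which 2, 8 and 1 rose and 5, 4 and 1 fell. Over all genes 908 of 11021, 1719 of 11277 and 78 of 11501 rose there, and 10.1%, 15.2% and 0.791% fell. Downstream, 20, 25 and 24 were tested, with 3, 8 and 3 higher and 2, 2 and 1 lower. Over all genes 9.52%, 17.6% and 7.26% were higher, and 699 of 13441, 1499 of 14789 and 393 of 14372 were lower. The counts for the list are a description only. EHF, an epithelial ETS factor like SPDEF, fell in 3′ UTRs in all 3 lines (-0.66, -0.86 and -0.98, edgeR adjusted p = 6.8e-04, 3.4e-04 and 0.0151) and also downstream (-0.97, -1.60 and -1.36), where no member fell. In the ratio of downstream to 3′ UTR reads EHF passed in no line (edgeR adjusted p = 0.511, 0.0594 and 0.408). Downstream changes of listed genes are relative to the growing 10 kb total. Values with summed library sizes are not given for them. SOX4, a SOX family factor, fell in its 3′ UTR in LNCaP (-0.82, adjusted p = 0.00603) and LNCaP95 (-1.77, adjusted p = 1.0e-05) and rose downstream in each line (1.55, 2.14 and 3.92). ONECUT2, a homeobox factor, rose in the 3′ UTR in LNCaP (0.93, adjusted p = 2.5e-04) and LNCaP95 (0.44, adjusted p = 0.0171). SNAI2, a repressor of epithelial genes, rose there in LNCaP, from 5 reads over the controls to 75 over the knockdown libraries (adjusted p = 0.00465), and in LNCaP95 (1.47, adjusted p = 4.3e-04).

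Of 14 transcriptional coregulators, all tested in 3′ UTRs, 0, 1 and 0 rose and 1, 3 and 0 fell in LNCaP, LNCaP95 and 22Rv1. TLE3, a corepressor of the Groucho family, fell in LNCaP (-1.20, edgeR adjusted p = 3.3e-06) and LNCaP95 (-0.75, adjusted p = 0.0016), and was -0.28 in 22Rv1 (adjusted p = 0.416). Downstream, 13, 14 and 14 coregulators were tested, with 1, 4 and 4 higher and 1, 5 and 1 lower. TRIM24, a bromodomain coregulator, rose downstream in LNCaP (1.77, adjusted p = 0.0116) and LNCaP95 (2.12, adjusted p = 4.4e-04), while the histone methyltransferase KMT2D fell there (-0.62, adjusted p = 0.0251, and -0.87, adjusted p = 0.00323). These falls are relative to the 10 kb total. In the ratio of downstream to 3′ UTR reads KMT2D was -0.32 in LNCaP (edgeR adjusted p = 0.581) and -0.93 in LNCaP95 (adjusted p = 0.0185). Of the nuclear receptor coactivators, NCOA2 fell downstream in LNCaP95 (-0.74, adjusted p = 0.00546) and 22Rv1 (-0.86, adjusted p = 9.1e-06), and NCOA3 rose in the same lines, from 2 and 4 reads over the controls to 76 and 133 over the knockdown libraries (adjusted p = 0.00278 and 0.00558). The ratio of NCOA2 was -1.72 in LNCaP95 (edgeR adjusted p = 0.0017) and -1.15 in 22Rv1 (adjusted p = 0.0304). SMARCA4, a chromatin remodelling ATPase, rose downstream in LNCaP95 and 22Rv1 too (1.13, adjusted p = 0.00224, and 0.60, adjusted p = 0.0451).

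Across libraries the 3′ UTR levels of the members had little in common, as a description of 27 libraries that fall into 9 groups of line and hairpin. Pearson's r of the log2 levels was lowest for GRHL2 with SPDEF (-0.47) and highest for HOXB13 with GRHL2 (0.46). Of the 3 genes most like each member, those reported, out of 8791 with a mean of at least 10 CPM, were DHX36, ZNF708 and SCCPDH for FOXA1 (r from 0.88 to 0.89), TM4SF1, LRRC26 and TRIM68 for HOXB13 (0.81 to 0.85), FBXO38, PFKFB3 and ANKRD37 for GATA2 (0.78 to 0.81), PDS5B and AGA for GRHL2 (0.84) and RPL8, MIDN and BMP1 for SPDEF (0.91 to 0.93). No other member was among the 3 genes nearest to any member.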

How the data were processed

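PAC-seq was done on total RNA from 27 libraries (LNCaP, LNCaP95 and 22Rv1, each with CTRL sh, CPSF1 sh1 or CPSF1 sh2, 3 libraries per group). The authors aligned reads with HISAT2 2.1.0 to GRCh37 (hg19) and deposited raw read counts per gene, made with featureCounts of Subread 2.0.3 on the 3′-most base and on the gene's strand, in 4 tables (3′ UTR with 300 bases added, introns, CDS, 10 kb downstream without exons of that strand). Versions come from the submitters' processing notes. Internal priming and the handling of reads in regions of 2 genes could move counts and are not stated for these tables.

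From the counts, edgeR 4.0.16 (R 4.3.3, limma 3.58.1) quasi-likelihood F-tests were run per table and line on all genes with a mean above 2 CPM in the libraries compared, with TMM factors and Benjamini-Hochberg adjustment over all tested genes (called under 0.05). Knockdown is both CPSF1 hairpins (6 libraries) against control (3). Baselines used the 9 control libraries, and differences between lines used all 27. CPM per library use TMM factors over all 27 libraries of a table. Changes are log2. Their standard error (SE) was derived as the size of the change divided by the square root of the F statistic. Shares of a gene's reads were compared by exact two-sided permutation tests over 84 splits. Their p-values are given unadjusted. They were also adjusted by Benjamini-Hochberg over the 15 shares of a region. Downstream, HOXB13 in LNCaP (adjusted permutation p = 0.067), GATA2 in LNCaP95 (0.051) and GRHL2 in 22Rv1 (0.051) then lost the call. So did each intron share that had passed (adjusted permutation p from 0.119 to 0.134). This adjustment does not cover that the genes were chosen with results known. Scripts were tested on simulated data. Depth, 3452413 to 12425417 reads per library, leaves downstream counts of GATA2 and SPDEF near 0.

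The 5 genes, the lists of other genes and the tests were chosen with earlier results of these data known. Members are named in full, with the 3 genes most correlated with each, and genes of the other lists where called in 1 direction in at least 2 lines (3′ UTR or 10 kb), except for a few genes that are not reported here. Alternatives were DESeq2 1.42.0, RLE factors, no filter, a filter on every library, summed library sizes, each hairpin alone, 1 fit of all libraries, a replicate block and each library left out. Replicate numbers were not taken to pair libraries: deviations of same-numbered libraries correlated at -0.35 to 0.25 (LNCaP), -0.30 to 0.25 (LNCaP95) and -0.25 to 0.54 (22Rv1), over 0.1 in 3, 4 and 3 of 9 pairs. In 22Rv1 all 3 pairs of control and CPSF1 sh1 were over 0.1 (0.54, 0.36 and 0.17), so a blocked fit of CPSF1 sh1 alone was added after these values were seen. GENCODE annotation mapped to GRCh37 gave gene coordinates and newer ends, the deposited counts gave the counted regions, and the GRCh37 sequence gave hexamers.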

Additional observations from a re-analysis of the deposited data

Results flagged for a closer look

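In 30 groups of 6 knockdown libraries (5 genes, 2 regions, 3 lines), the highest or lowest library stood apart by Dixon's criterion for 6 values (gap over range) in 2 cases, and chance alone does so in about 1 in 20 groups. GATA2 in the 3′ UTR of LNCaP95 was at 152 CPM in the first CPSF1 sh1 library, 0.705 of the range above the next knockdown library. GATA2 downstream in LNCaP was at 10.8 CPM in the third CPSF1 sh2 library (0.777 of the range), a level made of 5 reads.

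The change after knockdown differed between lines for 3 members, by the test of the difference itself in edgeR over all 27 libraries. In 3′ UTRs the change of HOXB13 in LNCaP95 exceeded that in LNCaP by 0.53 ± 0.15 on the log2 scale (adjusted p = 0.0233) and that in 22Rv1 exceeded LNCaP by 0.63 ± 0.15 (adjusted p = 0.0111). Neither passed with summed library sizes (0.39, adjusted p = 0.146, and 0.50, adjusted p = 0.0847). The change of GATA2 in 22Rv1 exceeded that in LNCaP95 by 1.17 ± 0.23 in the 3′ UTR (adjusted p = 0.00105) and by 3.15 ± 0.72 in introns (adjusted p = 0.00279). Downstream, the change of HOXB13 in LNCaP95 exceeded that in LNCaP by 1.58 ± 0.40 (adjusted p = 0.0104), and 22Rv1 minus LNCaP95 was -1.64 ± 0.40 (adjusted p = 0.00542). The downstream change of GRHL2 in LNCaP95 exceeded that in LNCaP by 1.89 ± 0.38 (adjusted p = 4.9e-04), and 22Rv1 minus LNCaP95 was -2.52 ± 0.40 (adjusted p = 3.8e-06). The difference between 22Rv1 and LNCaP did not pass for the downstream change of any member. The depth of CPSF1 loss also differed, with 3′ UTR changes in CPSF1 of -1.19 (LNCaP), -1.05 (LNCaP95) and -0.73 (22Rv1). Its part in these differences was not tested.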

How the results depend on the processing

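Over 151 results, 1457 alternative values were computed, of which 1319 kept direction and side of the threshold, 73 lost the call, 16 gained it and 49 changed sign. None of the 49 had passed the test, and the cause of the changes was not tested. Summed library sizes turned the 3′ UTR change of FOXA1 and HOXB13 in LNCaP95 to -0.013 and -0.073 and of FOXA1 and SPDEF in 22Rv1 to -0.012 and -0.0090, the LNCaP intron change of GATA2 and GRHL2 to -0.16 and -0.059, the downstream change of HOXB13 and SPDEF in LNCaP to 0.44 and 0.28 and of HOXB13 in 22Rv1 to 0.35, its ratio to the 3′ UTR there to 0.33 (no TMM), the control difference of HOXB13 (22Rv1 minus LNCaP) to 0.12 and of GRHL2 (22Rv1 minus LNCaP95) to 0.11 downstream, and the difference in GRHL2 intron change (22Rv1 minus LNCaP95) to 0.12. CPSF1 sh1 alone gave -0.032 for FOXA1 in 22Rv1 3′ UTRs (-0.021 with a replicate block) and, downstream in LNCaP, -0.0039 for GATA2 and 0.021 for SPDEF. CPSF1 sh2 alone gave -0.039 and -0.014 for FOXA1 and HOXB13 in LNCaP95 3′ UTRs, -0.092 for SPDEF in 22Rv1 3′ UTRs, -0.40 for GATA2 in LNCaP introns and 0.094 for HOXB13 downstream in LNCaP. RLE factors gave -0.0024 for HOXB13 over the whole gene in 22Rv1, and log odds gave -0.66 for the downstream share of GATA2 in 22Rv1.

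Leaving out 1 library, 3′ UTR changes spanned -0.23 to 0.068 for GRHL2 in LNCaP, -0.013 to 0.22 for FOXA1 and -0.029 to 0.083 for HOXB13 in LNCaP95, and -0.039 to 0.18 for FOXA1, -0.0074 to 0.21 for GRHL2 and -0.037 to 0.20 for SPDEF in 22Rv1. GATA2 in LNCaP introns spanned -0.18 to 0.57. Downstream in LNCaP the spans were -0.070 to 0.52 for FOXA1, -0.25 to 0.22 for HOXB13, -0.0047 to 1.40 for GATA2 and -0.57 to 0.12 for SPDEF, with -0.18 to 4.56 for SPDEF in LNCaP95 and -0.42 to 0.058 for HOXB13 in 22Rv1. Control differences spanned -0.044 to 0.17 for FOXA1 (22Rv1 minus LNCaP, 3′ UTR), and downstream -0.38 to 0.21 for HOXB13 (22Rv1 minus LNCaP) and -0.48 to 0.017 for GRHL2 (22Rv1 minus LNCaP95). The downstream share of HOXB13 in 22Rv1 spanned -0.515 to 2.46 points and the intron share of GATA2 in LNCaP -0.93 to 0.453 points.

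The number of the 5 members called in LNCaP 3′ UTRs, 1, was 2 with CPSF1 sh1 alone and 0 with CPSF1 sh2 alone (1 to 2 with a library left out). In LNCaP95 3′ UTRs, 1, it was 0 with CPSF1 sh1 alone, and in 22Rv1, 0, it was 0 to 1 with a library left out. In introns it was 1 in place of 0 with summed sizes in LNCaP and in 22Rv1 (0 to 1 left out in LNCaP), and in LNCaP95, 1, it was 0 with every library above 2 CPM, 0 with CPSF1 sh1 and 2 with CPSF1 sh2 alone (0 to 1 left out). Downstream in 22Rv1, 2, it was 1 with RLE factors, the stricter filter, DESeq2 or 1 fit of all libraries, 0 with CPSF1 sh1 alone, 3 with CPSF1 sh2 alone or summed sizes (0 to 3 left out). For controls it was 2 to 3 (22Rv1 minus LNCaP) and 3 to 4 in the other pairs with a library left out. With a replicate block the numbers called were 1, 1 and 0 in 3′ UTRs, 0, 1 and 0 in introns and 1, 4 and 2 downstream, as without it. Read shares lost calls: of 12 that passed unadjusted, 5 did not in an exact permutation within replicate numbers (27 splits, smallest p 0.037), each at p = 0.0741. They were HOXB13 in LNCaP, GATA2 in LNCaP95 and GRHL2 in 22Rv1 downstream and GATA2 introns in LNCaP95 and 22Rv1. On the log odds scale the downstream shares of FOXA1 in LNCaP (exact permutation p = 0.0476) and SPDEF in 22Rv1 (p = 0.0357) passed. With CPSF1 sh1 alone in 22Rv1, where same-numbered controls and CPSF1 sh1 libraries deviated together, the block (chosen after seeing the data) called 80 genes higher and 77 lower in 3′ UTRs in place of 2 and 1, and 0 members in 3′ UTRs, introns and downstream, as without the block.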
